A study of Mus musculus with 9 samples.

Results

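PPARA, the nuclear receptor that turns on lipid use in the fasted liver, was followed together with 9 genes it is known to drive: Cyp4a10, Cyp4a14, Cyp4a31, Vnn1, Pdk4, Fgf21, Angptl4, Acot3 and Creb3l3. These 10 genes were taken by symbol from a deposited expression table with 55414 Ensembl features, and each symbol stood on 1 row. RNA sequencing covered 9 liver libraries from the NSG strain, whose mice lack mature lymphocytes, all labelled as wild type in genotype. Tail vein injections were given for 5 weeks. The mice of 3 libraries had received extracellular vesicles (EVs) of the human triple-negative breast cancer line MDA-MB-231, those of 3 others EVs of the human mammary epithelial line MCF-10A, which does not form tumors, and those of the last 3 phosphate-buffered saline (PBS) by the same route. The feeding state of the mice and the hour at which livers were taken are not given in the sources used here, and neither is whether a library stands for a mouse of its own. The p-values below therefore measure only the spread between these samples. Levels are in TPM, the abundance of a transcript scaled for its length and for the total of the library. They are shares of that total, so the level of a gene also depends on how much of it other genes take up.

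In fasting, fatty acids released from fat tissue reach the liver, where they or their derivatives bind PPARA. PPARA pairs with the retinoid X receptor on DNA elements called DR1, a pair of hexamers close to AGGTCA separated by a single base, and raises genes of fatty acid oxidation in peroxisomes, microsomes and mitochondria. Its targets also include secreted proteins that act on other tissues, such as the hormone FGF21, and CREBH, the membrane-bound transcription factor encoded by Creb3l3, which acts with PPARA on Fgf21.

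Start-site sequences are shown for the members whose window holds a motif that was searched, since these members are described as PPARA targets. RefSeq windows on GRCm38.p6, from 250 bases before a transcription start to 50 bases after it, were at hand for 5 of the 10 genes (Ppara, Fgf21, Creb3l3, Acot3 and Pdk4), with 2 start windows each for Acot3 and Creb3l3. Motifs were searched on both strands, and capitals mark the match. The hexamer AGGTCA was found on the opposite strand of Acot3, where it reads TGACCT and begins at position 19 from the start, and on the printed strand of the downstream start of Creb3l3, where it begins at position -202. The E-box CACGTG was found in Fgf21, beginning at position -50.

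Acot3, chr12:84051894-84052193, plus strand: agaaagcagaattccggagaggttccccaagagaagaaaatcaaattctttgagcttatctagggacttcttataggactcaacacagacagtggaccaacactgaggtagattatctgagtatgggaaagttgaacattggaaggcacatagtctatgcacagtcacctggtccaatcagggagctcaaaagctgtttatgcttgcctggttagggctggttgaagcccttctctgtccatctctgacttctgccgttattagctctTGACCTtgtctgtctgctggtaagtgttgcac

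Creb3l3, chr10:81092542-81092841, minus strand: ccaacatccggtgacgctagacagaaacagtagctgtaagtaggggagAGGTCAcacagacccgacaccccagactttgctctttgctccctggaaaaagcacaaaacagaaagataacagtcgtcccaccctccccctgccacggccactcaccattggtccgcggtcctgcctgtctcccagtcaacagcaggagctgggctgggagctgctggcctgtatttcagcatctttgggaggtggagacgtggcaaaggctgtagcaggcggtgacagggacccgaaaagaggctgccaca

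Fgf21, chr7:45615441-45615740, minus strand: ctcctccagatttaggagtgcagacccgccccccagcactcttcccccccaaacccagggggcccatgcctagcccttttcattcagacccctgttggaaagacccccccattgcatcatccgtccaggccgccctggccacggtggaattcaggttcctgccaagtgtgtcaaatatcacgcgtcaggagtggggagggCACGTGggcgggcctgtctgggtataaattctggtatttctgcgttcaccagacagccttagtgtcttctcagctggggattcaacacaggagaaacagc

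Of the 32851 promoters in the same RefSeq table, 16.3% hold AGGTCA on either strand and 7.15% hold CACGTG. A full DR1 element with both hexamers exact, which contains AGGTCA, is in 0.0396% of them, and a DR1 with any base at the fourth place of each hexamer is in 0.381%. Neither form is in any of the 7 windows of the 5 genes, which says nothing of sites elsewhere.

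The libraries themselves differed in ways that bear on the values below. The number of Ensembl features above 0 TPM ran from 17403 to 20070. TPM keeps no read depth, so no counting interval can be given. In the MCF-10A EV libraries all 6059 loci assembled from the reads are listed at 0, as is the mitochondrial gene mt-Co2, and this difference in the table cannot be told apart from the treatment of that group. MCF-10A EV 1 held 142000 TPM of 15 acute phase genes and 5090 TPM of 8 neutrophil markers, against at most 28900 and 217 TPM in the other 8 libraries. PBS 2 held 508 TPM of 9 adipocyte markers, with Cfd at 284.67 TPM and Adipoq at 17.64 TPM, against 7.94 to 22.4 TPM summed in every other library. The summed level of 12 hepatocyte markers ran from 42800 to 112000 TPM after MDA-MB-231 EVs, from 49000 to 70400 TPM after MCF-10A EVs and from 41700 to 101000 TPM after PBS, so the libraries carried the RNA of liver. Mitochondrially encoded genes made up 26.3% of TPM in PBS 1 and 4.96% to 12.1% in the other libraries, and 12 of the 13 were below 0 in MDA-MB-231 EV versus PBS, with a median log2 change of -1.15. The 12 Kupffer cell and macrophage markers were all above 0 in that comparison, with a median of 0.72. They summed to 597 to 901 TPM after MDA-MB-231 EVs, 331 to 2210 TPM after MCF-10A EVs and 328 to 719 TPM after PBS. The highest sum was that of MCF-10A EV 1. The part of the Kupffer cell RNA in the changes of the members and of their pathway was not tested. Fewer cells of a type and less RNA per cell cannot be told apart in such bulk samples.

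The 10 genes did not separate the groups as a block, and much of their variation lay in single libraries. MDA-MB-231 EV 1 was the highest of the 9 libraries for 7 members (Ppara, Cyp4a10, Cyp4a14, Cyp4a31, Fgf21, Acot3 and Creb3l3) and was among the highest 2 for 9. The same library was highest for 26.9% of the 12860 genes that averaged at least 1 TPM and were tested. PBS 2 was highest for Vnn1 and Pdk4, while over all genes tested it was highest for 2.76%. The lowest levels were spread more widely, with MCF-10A EV 1 lowest for Cyp4a10, Cyp4a14 and Acot3, MCF-10A EV 3 for Ppara and Cyp4a31, PBS 1 for Pdk4 and Fgf21, PBS 3 for Angptl4 and Creb3l3, and MDA-MB-231 EV 3 for Vnn1. Summed over the 10 genes, TPM were 1010, 393 and 406 in MDA-MB-231 EV 1 to 3, 116, 184 and 189 in MCF-10A EV 1 to 3, and 319, 479 and 315 in PBS 1 to 3. Each MCF-10A EV library was below every library of the other groups on this sum, of which Cyp4a10 was the greatest part in the MDA-MB-231 EV and PBS libraries and Creb3l3 in the MCF-10A EV libraries.

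**Figure D1:**
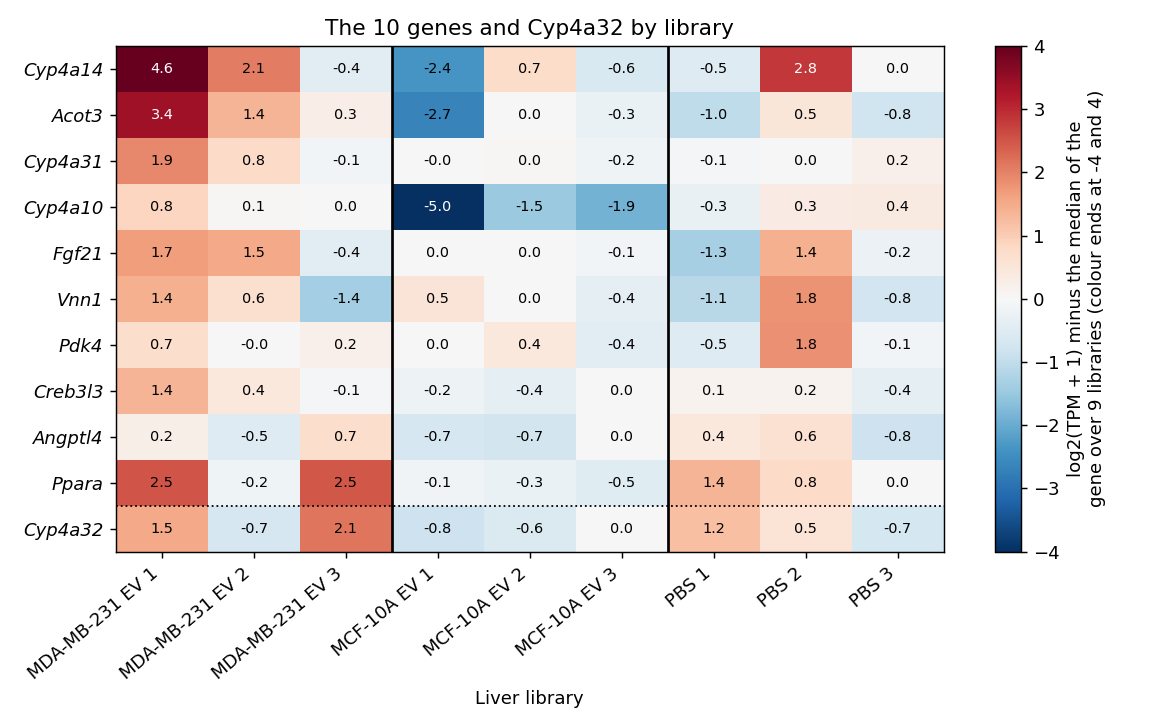
Each cell gives log2(TPM + 1) of a gene in a library minus that gene's median over the 9 libraries, with Cyp4a32, which is not one of the 10 genes, under the dotted line. The first column, MDA-MB-231 EV 1, is above the median for all 10 genes, Cyp4a10 is low in all 3 MCF-10A EV libraries, and Ppara and Cyp4a32 have the same 3 highest libraries.

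Ppara itself, the receptor gene, was high in only part of the MDA-MB-231 EV group. It was at 80.95, 11.7 and 79.15 TPM in MDA-MB-231 EV 1 to 3, at 11.83, 10.9 and 9.06 TPM in MCF-10A EV 1 to 3, and at 35.52, 23.13 and 13.21 TPM in PBS 1 to 3. MDA-MB-231 EV 2 lay below every PBS library and within the MCF-10A EV range, while the MCF-10A EV libraries were all below the PBS libraries. The group means were 57.3 ± 39.5 TPM after MDA-MB-231 EVs, 10.6 ± 1.41 TPM after MCF-10A EVs and 24.0 ± 11.2 TPM after PBS (SD, n = 3 each). On the log2(TPM + 1) scale, which understates changes of low genes and is used for every log2 change here, limma gave 0.91 ± 0.68 (SE) for MDA-MB-231 EV versus PBS and -1.01 ± 0.68 for MCF-10A EV versus PBS, with a Benjamini-Hochberg adjusted p of 1 for both. MDA-MB-231 EV versus MCF-10A EV gave 1.92 ± 0.68, with a 95% interval of 0.40 to 3.44, an unadjusted p of 0.0179 and an adjusted p of 1. Without MDA-MB-231 EV 2 the change against PBS was 1.80, and without MDA-MB-231 EV 1 it was 0.46.

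The 3 libraries highest in Ppara were MDA-MB-231 EV 1, MDA-MB-231 EV 3 and PBS 1, and these were also the 3 highest in the summed TPM of 15 circadian clock genes and their outputs. That sum was 537, 152 and 377 TPM in MDA-MB-231 EV 1 to 3, 182, 293 and 298 TPM in MCF-10A EV 1 to 3, and 456, 240 and 275 TPM in PBS 1 to 3. Gene by gene, of 13 clock genes tested, MDA-MB-231 EV 1 was highest for 5, MDA-MB-231 EV 3 for 6 and PBS 1 for 1. PBS 1 was lowest for 2 of them. The same 3 libraries were highest in 8 sinusoidal endothelial markers, at 293, 361 and 321 TPM against at most 258 TPM elsewhere, and in 8 stellate cell markers, at 541, 767 and 728 TPM against at most 470 TPM. Over all genes tested, MDA-MB-231 EV 1 was highest for 26.9%, MDA-MB-231 EV 3 for 27.3% and PBS 1 for 10.7%. High values were therefore common across genes in MDA-MB-231 EV 1 and 3. PBS 1 was more often the lowest library, for 19.3% of all genes tested. Ppara is known to follow the clock in mouse liver. The part of the clock, endothelial and stellate cell sums in the spread of Ppara was not tested.

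Of the CYP4A enzymes, which hydroxylate fatty acids at their omega end, Cyp4a10 had the smallest p of the members in both comparisons with MCF-10A EV, and passed the threshold in neither. It was at 283.9, 164.35 and 157.6 TPM in MDA-MB-231 EV 1 to 3, at 3.83, 55.85 and 41.8 TPM in MCF-10A EV 1 to 3, and at 128.1, 196.05 and 201.29 TPM in PBS 1 to 3. Every MCF-10A EV library lay below every library of both other groups, and the MDA-MB-231 EV and PBS ranges overlapped. The mean was 202 ± 71.1 TPM after MDA-MB-231 EVs, 33.8 ± 26.9 TPM after MCF-10A EVs and 175 ± 40.8 TPM after PBS (SD, n = 3 each). The log2 change was -2.92 ± 0.80 (SE) for MCF-10A EV versus PBS, with a 95% interval of -4.69 to -1.16, an unadjusted limma p of 0.00408 and an adjusted p of 0.521. It was 3.10 ± 0.80 for MDA-MB-231 EV versus MCF-10A EV, with an interval of 1.34 to 4.87, an unadjusted p of 0.0028 and an adjusted p of 0.479. MDA-MB-231 EV versus PBS gave 0.18 ± 0.80 (adjusted p of 1).

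MCF-10A EV 1, the library with the high acute phase and neutrophil sums, had the lowest Cyp4a10. Without it the change of MCF-10A EV versus PBS was -1.81 and that of MDA-MB-231 EV versus MCF-10A EV was 1.99. With libraries weighted by their overall variance, the change against PBS was -2.23 with an adjusted limma p of 0.00351, the single setting in which a member passed the threshold. The same weighting called 548 genes in MCF-10A EV versus PBS, where equal weights called 25. The 3 MCF-10A EV libraries are also those listed without assembled loci, and rescaling every library to the same total over the Ensembl features left the adjusted p of Cyp4a10 at 0.587 against PBS.

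Cyp4a14 had the widest range of the 10 genes. It was at 240.68, 39.39 and 6.21 TPM in MDA-MB-231 EV 1 to 3, at 0.91, 15.05 and 5.41 TPM in MCF-10A EV 1 to 3, and at 5.74, 67.76 and 8.74 TPM in PBS 1 to 3. All groups overlapped, with MDA-MB-231 EV 3 among the low libraries and PBS 2 second highest. The log2 change was 1.32 ± 1.28 (SE) for MDA-MB-231 EV versus PBS, -1.51 ± 1.28 for MCF-10A EV versus PBS and 2.83 ± 1.28 for MDA-MB-231 EV versus MCF-10A EV, each with a limma adjusted p of 1. Single libraries of both groups moved the change of MDA-MB-231 EV versus PBS, which was 0.05 without MDA-MB-231 EV 1, 2.58 without MDA-MB-231 EV 3, 0.67 without PBS 1 and 2.35 without PBS 2. The change of MCF-10A EV versus PBS was -0.48 without PBS 2 and -0.70 without MCF-10A EV 1. That of MDA-MB-231 EV versus MCF-10A EV was 1.55 without MDA-MB-231 EV 1 and 4.09 without MDA-MB-231 EV 3.

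Cyp4a31 was the least abundant member, at 3.77, 1.13 and 0.17 TPM in MDA-MB-231 EV 1 to 3, at 0.23, 0.29 and 0.12 TPM in MCF-10A EV 1 to 3, and at 0.18, 0.25 and 0.45 TPM in PBS 1 to 3. Only MDA-MB-231 EV 1 and 2 reached 1 TPM, and MDA-MB-231 EV 3 was the second lowest of all 9 libraries. Its mean stayed under 1 TPM, so it was not among the 9 members tested.

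The CYP4A genes lie together on chromosome 4 and resemble each other in sequence. In the longest GENCODE M21 transcripts, 30.5% of the 50-base words of Cyp4a10 also occur in another CYP4A transcript, and 25.0% occur in Cyp4a32. For Cyp4a31 the shared part was 20.1% and for Cyp4a14 it was 0%, and how reads from shared stretches were assigned was not tested, so the levels of Cyp4a10 and Cyp4a31 are uncertain. Cyp4a32, which shares 46.8% of its words with the family, was at 64.76, 13.55 and 100.88 TPM in MDA-MB-231 EV 1 to 3, at 12.1, 14.5 and 22.13 TPM in MCF-10A EV 1 to 3, and at 51.69, 32.49 and 13.14 TPM in PBS 1 to 3. Its highest libraries were those of Ppara, not those of Cyp4a14, and its groups overlapped in every comparison. Cyp4a12a, which male mice are known to express in liver and kidney, was at most 0.12 TPM, Cyp4a12b was at most 0.02 TPM, and Cyp4a29 and Cyp4a30b are listed at 0 in all libraries. Of 11 genes of the other Cyp4 subfamilies 8 were tested and 0 were called by limma in any comparison, with a median log2 change of 0.25 for MDA-MB-231 EV versus PBS. Cyp4f14, a leukotriene hydroxylase, gave 0.51 ± 0.46 (SE) there.

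**Figure D2:**
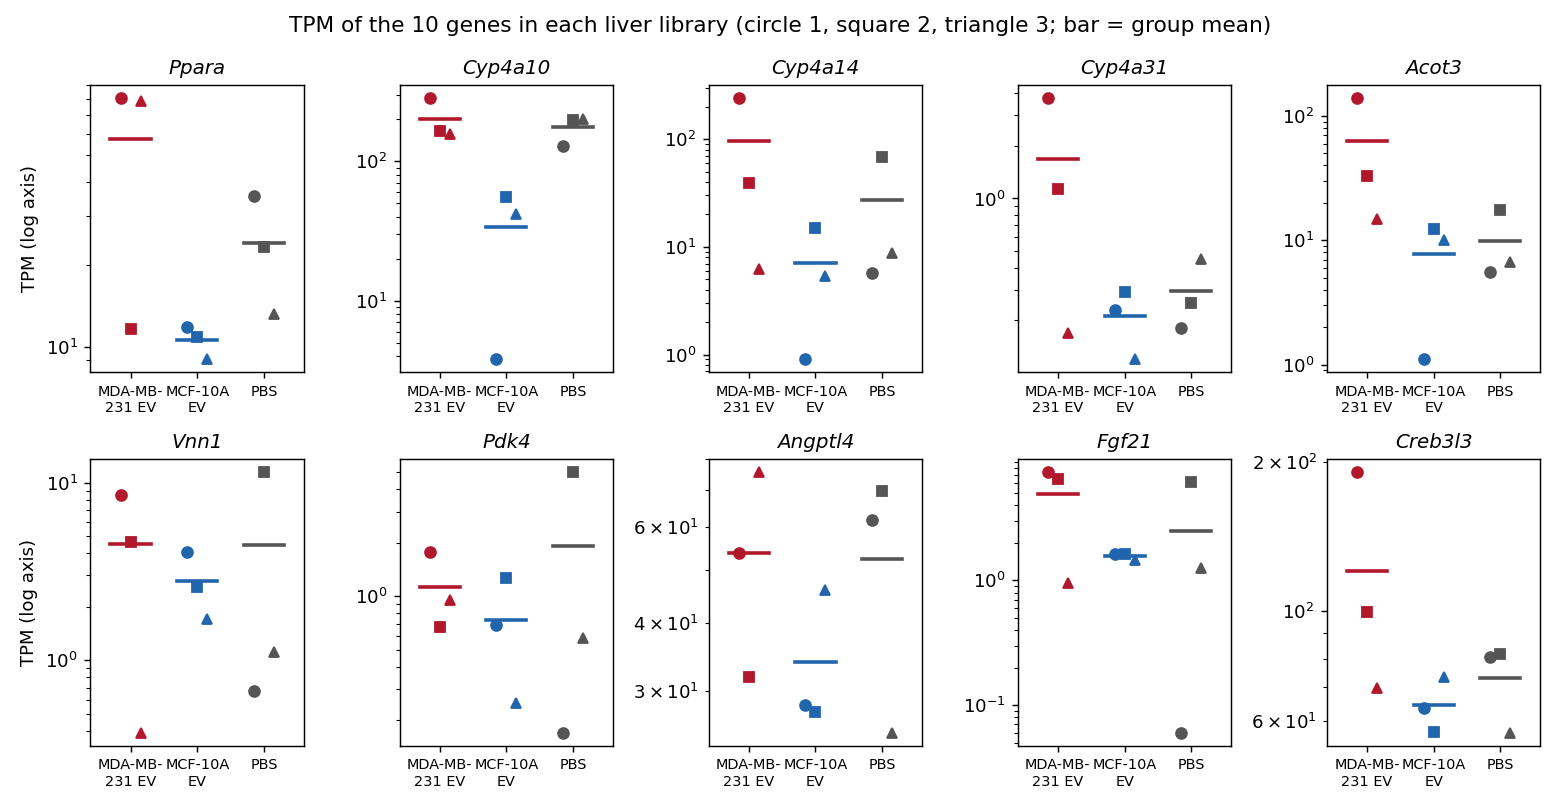
TPM of each of the 10 genes on a log axis whose range differs between panels, by group, with a circle for library 1, a square for library 2, a triangle for library 3 and a bar at the group mean. The Cyp4a10 points of the MCF-10A EV group lie under all others, and the MDA-MB-231 EV points of Cyp4a14 run from 6.21 to 240.68 TPM.

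Acot3, a peroxisomal thioesterase that frees fatty acids from their coenzyme A esters, had the largest change of the 9 tested members between MDA-MB-231 EV and PBS. It was at 139.72, 33 and 14.91 TPM in MDA-MB-231 EV 1 to 3, at 1.11, 12.33 and 9.97 TPM in MCF-10A EV 1 to 3, and at 5.57, 17.53 and 6.75 TPM in PBS 1 to 3. All MDA-MB-231 EV libraries were above the MCF-10A EV libraries, but MDA-MB-231 EV 3 lay under PBS 2. The mean was 62.5 ± 67.4 TPM after MDA-MB-231 EVs, 7.80 ± 5.92 TPM after MCF-10A EVs and 9.95 ± 6.59 TPM after PBS (SD, n = 3 each). The log2 change against PBS was 2.11 ± 0.88 (SE), with a 95% interval of 0.15 to 4.07, an unadjusted limma p of 0.0371 and an adjusted p of 1. Against MCF-10A EV it was 2.65 ± 0.88, with an interval of 0.69 to 4.61, an unadjusted p of 0.0128 and an adjusted p of 0.96. MCF-10A EV versus PBS gave -0.54 ± 0.88 (adjusted p of 1) and 0.30 without MCF-10A EV 1. The change of MDA-MB-231 EV versus PBS was 1.25 without MDA-MB-231 EV 1.

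Vnn1, the pantetheinase vanin-1, and Pdk4, the kinase that shuts off pyruvate dehydrogenase so that glucose carbon is spared, were led by a PBS library. Vnn1 was at 8.47, 4.6 and 0.39 TPM in MDA-MB-231 EV 1 to 3, at 4.06, 2.57 and 1.7 TPM in MCF-10A EV 1 to 3, and at 0.67, 11.51 and 1.11 TPM in PBS 1 to 3. Pdk4 was at 1.77, 0.67 and 0.95 TPM in MDA-MB-231 EV 1 to 3, at 0.69, 1.26 and 0.25 TPM in MCF-10A EV 1 to 3, and at 0.17, 5.03 and 0.58 TPM in PBS 1 to 3. For both genes PBS 2 was highest and all groups overlapped. The log2 change between MDA-MB-231 EV and PBS was 0.25 ± 0.85 (SE) for Vnn1 and -0.10 ± 0.63 for Pdk4. Without PBS 2 that of Vnn1 was 1.16, while Pdk4 then averaged under 1 TPM and was not tested. Pdk4 and Angptl4 are also made by adipocytes, whose markers were high in PBS 2, and the part of those cells in the levels of PBS 2 was not tested.

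Angptl4 encodes a secreted inhibitor of lipoprotein lipase, and it was the member with the narrowest range. It was at 53.82, 31.93 and 75.75 TPM in MDA-MB-231 EV 1 to 3, at 28.3, 27.5 and 45.96 TPM in MCF-10A EV 1 to 3, and at 61.93, 69.97 and 25.2 TPM in PBS 1 to 3. All groups overlapped. The log2 change was 0.08 ± 0.50 (SE) for MDA-MB-231 EV versus PBS and -0.53 ± 0.50 for MCF-10A EV versus PBS.

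Fgf21, the fasting hormone of the liver, was above 5 TPM in 3 libraries only. It was at 7.45, 6.5 and 0.95 TPM in MDA-MB-231 EV 1 to 3, at 1.64, 1.64 and 1.47 TPM in MCF-10A EV 1 to 3, and at 0.06, 6.13 and 1.25 TPM in PBS 1 to 3. The 3 high libraries were MDA-MB-231 EV 1 and 2 and PBS 2, and the MCF-10A EV libraries lay close together between the extremes of both other groups. The log2 change was 0.95 ± 0.73 (SE) for MDA-MB-231 EV versus PBS and 0.01 ± 0.73 for MCF-10A EV versus PBS, each with a limma adjusted p of 1. The first of these was 0.31 without PBS 1, 1.69 without PBS 2 and 1.76 with a pseudocount of 0.1. Fgf21 is also known to be raised by the integrated stress response through ATF4, and of 10 genes of that response 7 were tested. In MDA-MB-231 EV versus PBS 2 of them were above 0, beside 69.7% of all genes tested, with a median log2 change of -0.05 and 0 called. Among the 7, Atf4 had the smallest limma p, and 1 gene was higher without overlap (5.23% of all genes tested). The part of that response in the Fgf21 levels was not tested.

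Creb3l3, the gene of CREBH, varied least after Angptl4. It was at 190.74, 99.26 and 69.81 TPM in MDA-MB-231 EV 1 to 3, at 63.65, 56.85 and 73.37 TPM in MCF-10A EV 1 to 3, and at 80.58, 81.76 and 56.72 TPM in PBS 1 to 3. MDA-MB-231 EV 1 and 2 were above every other library, and MDA-MB-231 EV 3 was within the range of both other groups. The log2 change was 0.60 ± 0.43 (SE) for MDA-MB-231 EV versus PBS, and 0.21 without MDA-MB-231 EV 1. For MDA-MB-231 EV versus MCF-10A EV it was 0.76 ± 0.43, with an unadjusted limma p of 0.107.

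Across the members, limma called 0 of 9 at an adjusted p under 0.05 in each of the comparisons, where the share of the 12860 genes called was 0% for MDA-MB-231 EV versus PBS, 0.194% for MCF-10A EV versus PBS and 0.218% for MDA-MB-231 EV versus MCF-10A EV. At an unadjusted p under 0.05 there was 1 member in MDA-MB-231 EV versus PBS (1.55% of all genes tested), 1 in MCF-10A EV versus PBS (3.2%) and 3 in MDA-MB-231 EV versus MCF-10A EV (3.83%). MDA-MB-231 EV versus MCF-10A EV had 28 called genes, and 15 with the replicate number as a block, none of them a member. The members with groups apart were Ppara and Cyp4a10, both lower in MCF-10A EV than in PBS (of all genes tested 7.69% had no overlap, 2.95% higher and 4.74% lower), and Cyp4a10 and Acot3, both higher in MDA-MB-231 EV than in MCF-10A EV (6.53% had no overlap, 4.73% higher and 1.8% lower). MDA-MB-231 EV and PBS overlapped for all 9, where 6.03% of all genes tested did not, 5.23% being higher and 0.801% lower.

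By sign alone, 8 of the 9 tested members were above 0 in MDA-MB-231 EV versus PBS, beside 69.7% of all genes, with a median log2 change of 0.60 beside 0.21 for all genes, -1.15 for the mitochondrially encoded genes and 0.72 for the Kupffer cell markers. With the libraries rescaled without mitochondrially encoded genes the median of the members was 0.47 and Angptl4 was at -0.046. In MCF-10A EV versus PBS 2 of 9 were above 0, beside 56.8%, with a median of -0.53 beside 0.07. The median of the mitochondrially encoded genes there was -1.03. In MDA-MB-231 EV versus MCF-10A EV all 9 were above 0, beside 65%, with a median of 0.95 beside 0.17. The comparisons share libraries in pairs, so these counts do not stand apart from each other.

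**Figure D3:**
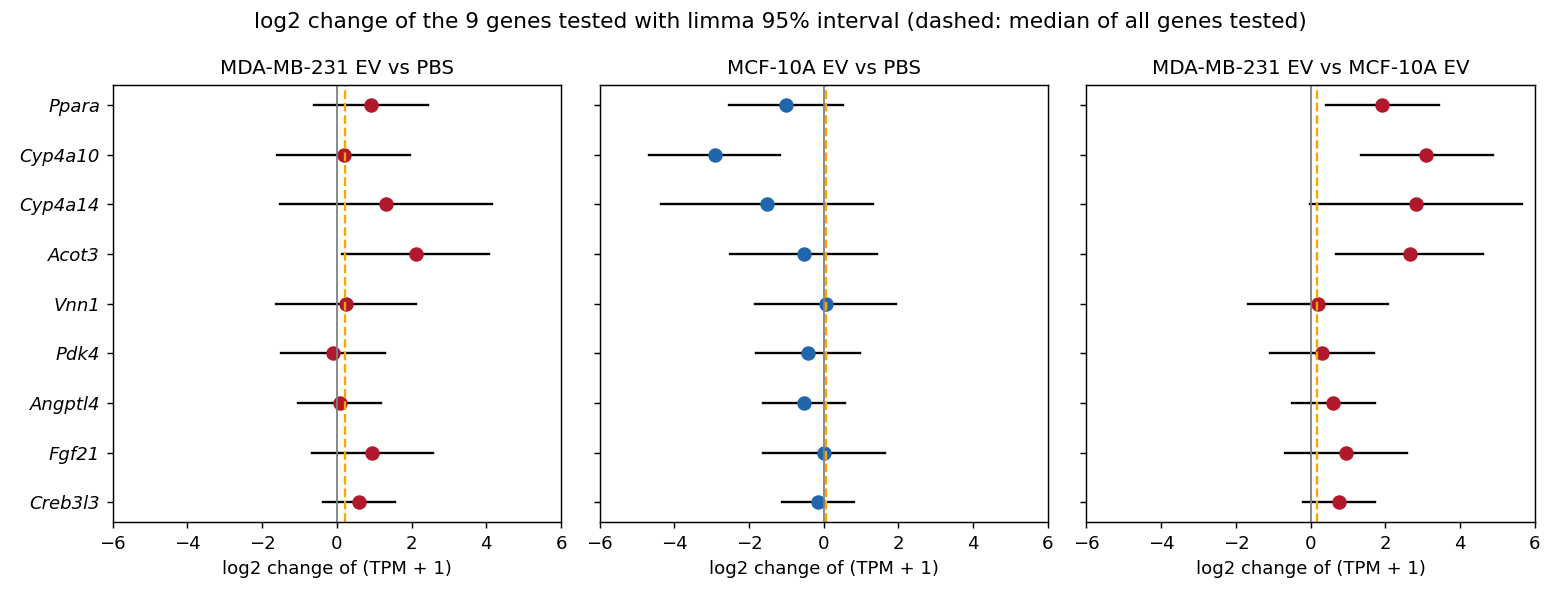
Log2 change of (TPM + 1) of the 9 tested genes in each comparison with its 95% limma interval, and a dashed line at the median of all genes tested. Intervals that leave out 0 belong to Acot3 in MDA-MB-231 EV versus PBS, to Cyp4a10 in MCF-10A EV versus PBS, and to Ppara, Cyp4a10 and Acot3 in MDA-MB-231 EV versus MCF-10A EV.

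Most of the wider PPARA program lay above 0 in both comparisons of MDA-MB-231 EV, without a called gene. Of 45 other PPARA targets, most of them enzymes of fatty acid uptake, activation and oxidation, 43 were tested and 0 were called by limma in any comparison. In MDA-MB-231 EV versus PBS 40 of 43 were above 0, beside 69.7% of all genes tested, with a median log2 change of 0.54 beside 0.21. At an unadjusted limma p under 0.05 there was 1 gene (1.55% of all genes tested). The medians there were -1.15 for mitochondrially encoded genes and 0.72 for Kupffer cell markers. In MCF-10A EV versus PBS 22 of 43 were above 0, beside 56.8%, with a median of 0.00 beside 0.07. At that unadjusted threshold there were 0 genes (3.2% of all). In MDA-MB-231 EV versus MCF-10A EV 40 of 43 were above 0, beside 65%, with a median of 0.40 beside 0.17. At that threshold there were 5 genes (3.83% of all). MDA-MB-231 EV 1 was the highest library for 28 of the 43 and lowest for 0, while PBS 1, the library with 26.3% mitochondrial TPM, was lowest for 16 (37.2%) and highest for 0. MDA-MB-231 EV 3 was highest for 0 of the 43 and PBS 2 for 4. Over all genes tested, PBS 1 was lowest for 19.3% and highest for 10.7%. The share of all genes tested that was highest was 26.9% in MDA-MB-231 EV 1, 27.3% in MDA-MB-231 EV 3 and 2.76% in PBS 2.

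Slc27a2, a fatty acid transporter and very long chain acyl-CoA synthetase, had the smallest p of these targets in MDA-MB-231 EV versus PBS. It was at 616.36, 257.72 and 188.95 TPM in MDA-MB-231 EV 1 to 3, at 237.99, 93.83 and 70.98 TPM in MCF-10A EV 1 to 3, and at 100.31, 145.54 and 88.06 TPM in PBS 1 to 3. Every MDA-MB-231 EV library was above every PBS library, with a log2 change of 1.51 ± 0.57 (SE), an unadjusted limma p of 0.0248 and an adjusted p of 1. G0s2, an inhibitor of triglyceride lipolysis, gave 1.01 ± 0.51, also without overlap. The thioesterase genes Acot4 and Acot12 gave 1.25 ± 0.70 and 0.76 ± 0.38, with overlapping groups.

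Hadha, the alpha subunit of the mitochondrial trifunctional protein of beta-oxidation, had the smallest p of these targets in both comparisons with MCF-10A EV. It was at 221.73, 144.72 and 56.61 TPM in MDA-MB-231 EV 1 to 3, at 47.67, 29.25 and 34.48 TPM in MCF-10A EV 1 to 3, and at 58.89, 116.1 and 79.3 TPM in PBS 1 to 3. The MCF-10A EV libraries were below all others, as they were for Cyp4a10. The log2 change was 1.72 ± 0.53 (SE) for MDA-MB-231 EV versus MCF-10A EV, with an unadjusted limma p of 0.00805 and an adjusted p of 0.816, and -1.14 ± 0.53 for MCF-10A EV versus PBS, with an adjusted p of 1. Etfdh, which passes electrons from beta-oxidation to ubiquinone, gave 1.83 ± 0.69 for MDA-MB-231 EV versus MCF-10A EV, with overlapping groups. Acsl1, a long chain acyl-CoA synthetase, gave -0.80 ± 0.49 for MCF-10A EV versus PBS, and the vanin gene Vnn3 gave 0.84 ± 0.54.

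**Figure D4:**
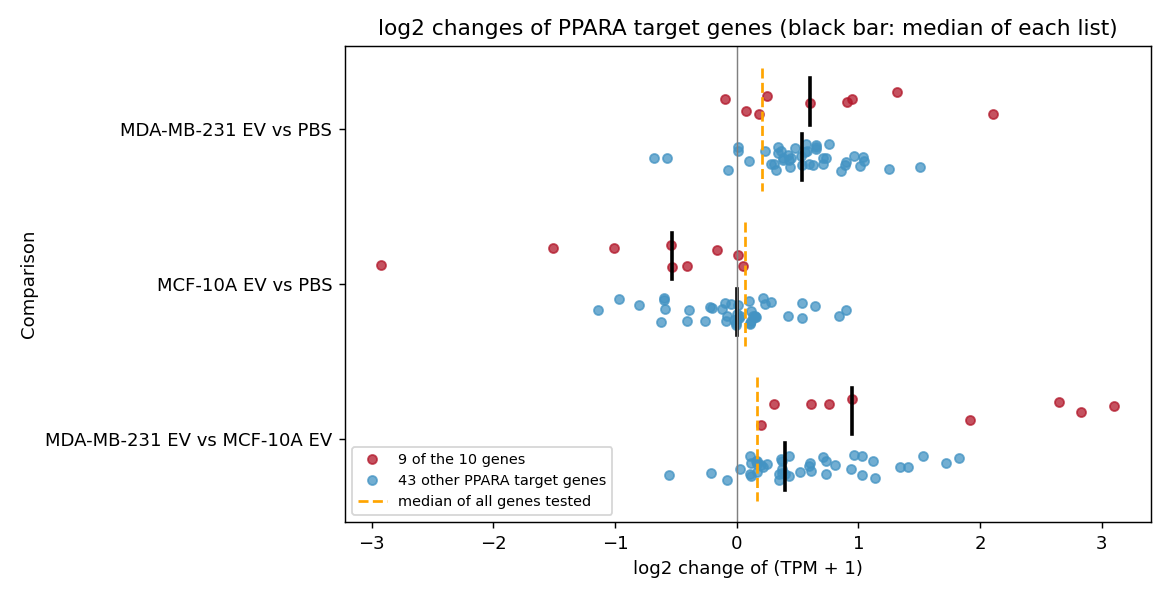
Log2 changes of (TPM + 1) in each comparison for the 9 tested members and the 43 other PPARA target genes, 1 point per gene, with a black bar at each list's median and a dashed line at the median of all genes tested. Points of both lists lie mostly right of 0 in the comparisons with MDA-MB-231 EV on top, and those of the 43 targets lie on both sides of 0 in MCF-10A EV versus PBS.

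The partners of PPARA, its coregulators and the receptors of its hormone target gave no called gene. Of 18 partner and coregulator genes 17 were tested and 0 were called by limma in any comparison. Rxra, the main retinoid X receptor of liver, was at 98.41, 40.38 and 24.97 TPM in MDA-MB-231 EV 1 to 3, at 47.96, 24.43 and 24.85 TPM in MCF-10A EV 1 to 3, and at 22.97, 35.42 and 27.25 TPM in PBS 1 to 3. Its groups overlapped, with a log2 change of 0.70 ± 0.52 (SE) for MDA-MB-231 EV versus PBS. Ncoa1, a steroid receptor coactivator, was lower in all MCF-10A EV libraries than in any other, with a log2 change of -1.44 ± 0.59 against PBS, an unadjusted limma p of 0.0335 and an adjusted p of 1. Ppargc1a, the coactivator PGC-1 alpha, was the partner left untested, with a mean under 1 TPM.

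Of the FGF21 receptor complex, all 5 genes were tested and 0 were called. Klb, the coreceptor beta-klotho, was at 18.23, 5.64 and 9.94 TPM in MDA-MB-231 EV 1 to 3, at 6.63, 4.33 and 3.56 TPM in MCF-10A EV 1 to 3, and at 5.08, 4.07 and 4.64 TPM in PBS 1 to 3. All MDA-MB-231 EV libraries were above the PBS libraries, with a log2 change of 1.00 ± 0.44 (SE), an unadjusted limma p of 0.0441 and an adjusted p of 1. Fgfr4, the main FGF receptor of hepatocytes, gave 0.22 ± 0.58.

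Of 8 targets of CREBH all were tested and 0 were called. Apoa5, an activator of triglyceride clearance, was at 2749.85, 1317.99 and 683.47 TPM in MDA-MB-231 EV 1 to 3, at 1018.13, 502.33 and 477.93 TPM in MCF-10A EV 1 to 3, and at 328.71, 570.37 and 563.84 TPM in PBS 1 to 3. The MDA-MB-231 EV libraries were above the PBS libraries, and they overlapped with the MCF-10A EV libraries. The log2 change against PBS was 1.51 ± 0.56 (SE), with an unadjusted limma p of 0.0223 and an adjusted p of 1. Cidec, a lipid droplet protein, gave -0.68 ± 0.53 and was highest in PBS 2, at 20.12 TPM. Apoa4, an apolipoprotein of the fasted liver, gave 0.61 ± 0.59.

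Lists of fasting genes and of fed-state genes gave no called gene either. Of 14 fasting genes, which include the PPARA target Cpt1a and the partner Ppargc1a already counted above, 13 were tested. In MDA-MB-231 EV versus PBS 9 of them were above 0, beside 69.7% of all genes tested, with a median log2 change of 0.55. In MDA-MB-231 EV versus MCF-10A EV 11 were above 0, beside 65% of all genes tested, with a median of 0.44 beside 0.17. Pcx, pyruvate carboxylase of gluconeogenesis, was at 232.48, 160.21 and 80.96 TPM in MDA-MB-231 EV 1 to 3, at 76.56, 41.18 and 45.97 TPM in MCF-10A EV 1 to 3, and at 87.14, 95.74 and 85.64 TPM in PBS 1 to 3. Its MCF-10A EV libraries were below all others, with a log2 change of 1.44 ± 0.46 (SE) for MDA-MB-231 EV versus MCF-10A EV and a limma adjusted p of 0.857. Got1, the cytosolic aspartate aminotransferase, gave 1.09 ± 0.49 for MDA-MB-231 EV versus PBS, with no overlap and an adjusted p of 1. Of 15 lipogenic and glycolytic genes of the fed state all were tested and 12 were above 0 in MDA-MB-231 EV versus PBS, with a median of 0.32. Fasting and fed lists were therefore both above 0 on balance in MDA-MB-231 EV versus PBS, as were 69.7% of all genes tested, whose median was 0.21. The lists differed elsewhere. The fed-state list had 8 of 15 genes above 0 in MDA-MB-231 EV versus MCF-10A EV, with a median of 0.04. In MCF-10A EV versus PBS, 5 of 13 fasting genes were above 0 (median -0.14) and 10 of 15 fed-state genes (0.18). Of all genes tested 56.8% were above 0 there, with a median of 0.07. Scd1, the stearoyl-CoA desaturase, gave 1.11 ± 0.44 for MCF-10A EV versus PBS, with no overlap, an unadjusted limma p of 0.0281 and an adjusted p of 1.

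Likeness to Ppara and to Cyp4a14 was taken over the 9 libraries as Pearson's r of log2(TPM + 1), as a description with shared libraries and scaling and without a test. The genes most like Ppara were Gm16344 (r of 0.989), Catspere2 (0.985), 9530082P21Rik (0.983), Map2k6 (0.977) and Wdr73 (0.967), none of them a member. Without MDA-MB-231 EV 1 and 3, the libraries farthest from the median of Ppara, these values were 0.966, 0.943, 0.933, 0.913 and 0.873. Of the other tested members Angptl4 was closest to Ppara, with an r of 0.738, and Vnn1 farthest, with -0.042. The genes most like Cyp4a14 were Dnase1l3 (0.967), Gpr182 (0.936), Cd300lg (0.934), the member Acot3 (0.921) and Ephx2 (0.920). Without MDA-MB-231 EV 1 and PBS 2, the libraries farthest from the median of Cyp4a14, these values were 0.906, 0.774, 0.811, 0.905 and 0.907. The r between Ppara and Cyp4a14 was 0.392, so the level of the receptor's transcript and that of its target were not ordered alike over these libraries.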

How the data were processed

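TruSeq libraries took 1 µg of liver RNA as input, per the labels' protocols. The authors deposited TPM for each of the 9 libraries. HISAT2, StringTie and RSEM with the build GRCm39 are named in the submitters' processing notes, without versions or order of use. No source used here gives strand handling or depth.

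The deposited TPM were used without rescaling. The 6059 assembled loci were left out, a departure from the planned analysis made after they were seen to be at 0 throughout one group. The test was limma 3.58.1 (R 4.3.3) on log2(TPM + 1), with group means over all 9 libraries, a trended variance, two-sided tests and the Benjamini-Hochberg adjustment over the 12860 genes averaging 1 TPM or more. Calls were made where the adjusted p was under 0.05. Of the 10 members, 9 passed the filter. Pdk4 passed it only through PBS 2, at 5.03 TPM, and averaged under 1 TPM over the other libraries. The model was also run on simulated data in which the spread of each gene was capped. That run does not show how the test performs at the spread of these libraries.

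Members and gene lists were chosen with earlier results of these data known. All members and CYP4A genes are named, with at most 4 genes of the smallest p from each list in a comparison and the 5 genes of highest r with Ppara and Cyp4a14. Library marker genes Cfd, Adipoq and mt-Co2, and the values of Ppargc1a, were chosen after their values were seen.

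The replicate numbers were taken to pair libraries only where same-numbered deviations from the group means correlated above 0.1 in every pair. This held between MDA-MB-231 EV and MCF-10A EV (r of 0.336, 0.11 and 0.436), though not with PBS, and no label says what the numbers mark. The p-values given for the members do not use the numbers. The block was fitted to all libraries, PBS included. With it the unadjusted limma p in MDA-MB-231 EV versus MCF-10A EV was 0.00471 for Cyp4a10, 0.0197 for Ppara and 0.0239 for Acot3.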

Additional observations from a re-analysis of the deposited data

How the results depend on the processing

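The 27 member changes were recomputed 528 times in all. Of these, 491 kept their direction and their side of the threshold, 36 changed sign (in 10 results) and 1 passed the threshold, Cyp4a10 with array weights. With one library left out at a time, sign changes occurred in MDA-MB-231 EV versus PBS for Cyp4a10 (log2 change -0.092 to 0.33), Vnn1 (-0.34 to 1.16), Pdk4 (-0.57 to 0.057) and Angptl4 (-0.37 to 0.41). They occurred in MCF-10A EV versus PBS for Vnn1 (-0.49 to 0.96), Fgf21 (-0.63 to 0.74) and Acot3 (-1.03 to 0.30), and in MDA-MB-231 EV versus MCF-10A EV for Vnn1 (-0.39 to 1.00). Without PBS 2, its highest library, Pdk4 averaged under 1 TPM and was not fitted. The range given for Pdk4 therefore leaves that run out. A pseudocount of 0.1 gave 0.23 for Pdk4 in MDA-MB-231 EV versus PBS and -0.0062 for Vnn1 in MDA-MB-231 EV versus MCF-10A EV. Quantile normalization gave -0.056 for Cyp4a10 and -0.17 for Angptl4 in MDA-MB-231 EV versus PBS and -0.034 for Fgf21 in MCF-10A EV versus PBS. Rescaling without mitochondrially encoded genes gave -0.046 for Angptl4 in MDA-MB-231 EV versus PBS. Array weights gave 0.20 for Pdk4 in MDA-MB-231 EV versus PBS, and in MCF-10A EV versus PBS -0.0036 for Fgf21, 0.33 for Angptl4, 0.32 for Acot3 and 0.14 for Creb3l3. Leaving out PBS 1 and MDA-MB-231 EV 3 together gave -0.021 for Angptl4 in MDA-MB-231 EV versus PBS, and -0.49 for Vnn1 and -0.63 for Fgf21 in MCF-10A EV versus PBS. Normal scores of ranks, chosen after seeing the data, gave -0.016 for Cyp4a10 and -0.048 for Angptl4 in MDA-MB-231 EV versus PBS and -0.054 for Vnn1 in MDA-MB-231 EV versus MCF-10A EV. Those values are differences of scores and not log2 changes, so only their signs compare with the others. The cause was not tested.

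Genes called in MCF-10A EV versus PBS numbered 25, and 40 with a pseudocount of 0.1, 11 without a filter, 548 with array weights (1 of them a member), 48 with the groups fitted alone, 85 without PBS 1 and MDA-MB-231 EV 3, and 48 with ranks. In MDA-MB-231 EV versus MCF-10A EV they numbered 28, and 10 without a filter, 17 at a mean of at least 5 TPM, 46 with array weights and 11 with the groups fitted alone. The replicate block gave 15 there and changed no call of a member. With PBS, whose libraries share only a number with the others (r of -0.389 to 0.5, and 5 of 9 libraries closest to their own number), the block called 0 genes for MDA-MB-231 EV and 20 for MCF-10A EV. In MDA-MB-231 EV versus PBS they numbered 0, and 28 without PBS 1 and MDA-MB-231 EV 3. Leaving out one library gave 0 to 24 genes in MDA-MB-231 EV versus PBS, 14 to 59 in MCF-10A EV versus PBS and 13 to 31 in MDA-MB-231 EV versus MCF-10A EV, with 0 members called. With 3 libraries a group and no read depth, the intervals of most members span several log2 units, and a missed threshold does not show that levels were alike.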
